A study of Mus musculus with 117 samples.

Results

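The libraries described here came from the uninjured spinal cord of mGfap-Cre-RiboTag mice at postnatal day 63 (P63), 5 RiboTag libraries and the 5 Flow libraries of the same animals, chosen by their labels as 10 of the 117 libraries of the series. All animals carried the RiboTag allele, in which Cre adds a hemagglutinin tag to a protein of the large ribosomal subunit, and the Cre of this line, labelled 73.12 GFAP Cre, is driven by mouse Gfap promoter sequence and needs no tamoxifen, so that a cell whose ancestor used the promoter stays tagged. RNA bound to tagged ribosomes was precipitated from spinal cord with an antibody to the tag and gave the RiboTag library of a mouse. The rest of the lysate, with the RNA that was not precipitated, gave its Flow library. Mice 1 to 3 were labelled male and mice 4 and 5 female, and none was treated. Each group therefore held 5 separate mice. The question put to them was which transcripts the tagged ribosomes of this line carried in healthy cord, relative to the rest of the tissue. Other groups were used for comparison only. They were 4 RiboTag and 4 Flow libraries of uninjured young adult Aldh1l1-CreERT2-RiboTag females, in which tamoxifen switches Cre on in cells that use the Aldh1l1 promoter at that time, and 5 RiboTag and 5 Flow libraries of mGfap-Cre-RiboTag females 14 d after a crush spinal cord injury (SCI).

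Astrocytes take up glutamate and GABA, buffer potassium, place water channels on their endfeet around vessels and supply lipids and synapse-organizing proteins to neurons. Ependymal cells line the central canal and carry motile cilia. Both come from radial glia. Oligodendrocyte progenitors (OPCs) and oligodendrocytes form the other macroglial lineage, Schwann cells make the myelin of the spinal roots, and microglia, vessel cells and meningeal fibroblasts come from outside the neural tube.

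Total counts on genes were 74999711 to 97184599 per RiboTag library and 79568647 to 94810318 per Flow library, a depth at which a floor of 3 counts was 0.0429 CPM (counts scaled by library size) in the RiboTag and 0.0293 CPM in the Flow group. The ribosomal RNA genes Rn45s and Rn18s took 4.75% to 14.0% of counts in RiboTag libraries, the lowest share in mouse 3, and 0.193% to 0.574% in Flow libraries. RNAs encoded in the mitochondrion took 0.298% to 0.420% and 8.55% to 9.90%. Xist, the RNA of the inactive X chromosome, was at most 0.136 CPM in the Flow libraries of mice 1 to 3 and at 39.0 and 49.2 CPM in those of mice 4 and 5, as their labels read. In the comparison at P63, 5 lymphocyte, 3 dorsoventral, 2 sensory ganglion, 2 neutrophil, 2 multiciliation, 2 ribosomal protein and 1 panel gene did not pass the filter on low counts, Hbb-bt of the erythrocyte list had no matching identifier, and these genes are left out of the counts below. No libraries were alike within sampling noise. CPM values below are scaled by TMM within each fit.

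Across 17136 genes tested, 3056 were at least 2-fold higher in RiboTag than in Flow libraries (17.8% of genes tested) and 3964 at least 2-fold lower (23.1%) at a false discovery rate (FDR) under 0.01 by edgeR's quasi-likelihood test. These genes are called enriched and depleted here. The median log2 ratio over all genes tested was −0.09. Without scaling between libraries it moved by −0.42, and 2031 genes were enriched against 5398 depleted, so that 27.3% of calls were enrichments in place of 43.5%. Of 147 genes followed by name, 12 then lost their call and 5 gained one. Hmgcs1 (log2 0.70), Nes (0.74), S100b (0.83), Sall1 (0.68), Pmp22 (0.78), Tagln (0.99), Col1a2 (0.68) and Rps27l (0.58) were among those no longer enriched. Bcas1 (−1.26), Dll1 (−1.24), Malat1 (−1.09) and Synm (−1.11) were among those that gained a call, as depleted. Under that setting no gene called in one direction was called in the other. Libraries of the 2 groups did not overlap, RiboTag above Flow, for 31.2% of genes tested and, Flow above RiboTag, for 35.4%. In bulk libraries, fewer cells of a type and less RNA per cell cannot be told apart.

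Genes that define astrocytes were all enriched. Of 14 identity genes tested, 14 were enriched and none depleted, with a median log2 ratio of 4.43, and the median per mouse lay between 4.18 and 4.56. Gfap, the astrocyte intermediate filament whose promoter drives Cre in this line, stood at 21515, 27224, 24149, 25383 and 25225 CPM in the RiboTag and at 527, 652, 562, 691 and 663 CPM in the Flow libraries of mice 1 to 5. The lowest RiboTag library lay far above the highest Flow library, and the fitted ratio was 39.9-fold (log2 5.32 ± 0.10 SE, adjusted p = 4.5e-15). Aldh1l1, a folate enzyme and general astrocyte marker, stood at 323, 336, 316, 385 and 356 CPM against 18.1, 14.8, 14.8, 17.5 and 14.9 CPM. Its groups did not overlap either, with a ratio of 21.4-fold (log2 4.42 ± 0.09 SE, adjusted p = 4.9e-15). Slc1a2, the main astrocyte glutamate transporter, averaged 12291 ± 1079 CPM and 466 ± 45.8 CPM (SD, n = 5), a log2 ratio of 4.72. The smallest ratios of the list were those of S100b, a calcium-binding protein (log2 1.25), and Glul, glutamine synthetase (log2 1.82), which Flow libraries also held at means of 1184 and 1406 CPM. On the scale of CPM per kilobase of exon (RPKM), which allows genes to be compared with each other, Gfap (6045), Apoe (5573), Sparcl1 (4203) and Aldoc (3827) were at high levels in RiboTag libraries.

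A panel of 429 consensus astrocyte genes came from the study, which took them from published datasets and had checked their enrichment in its own healthy astrocytes. Of 428 tested here, 425 were enriched and 0 depleted, with a median of 3.27. Since enrichment in tissue of the same study was known for the panel, the count is not independent evidence of its direction.

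**Figure D1:**
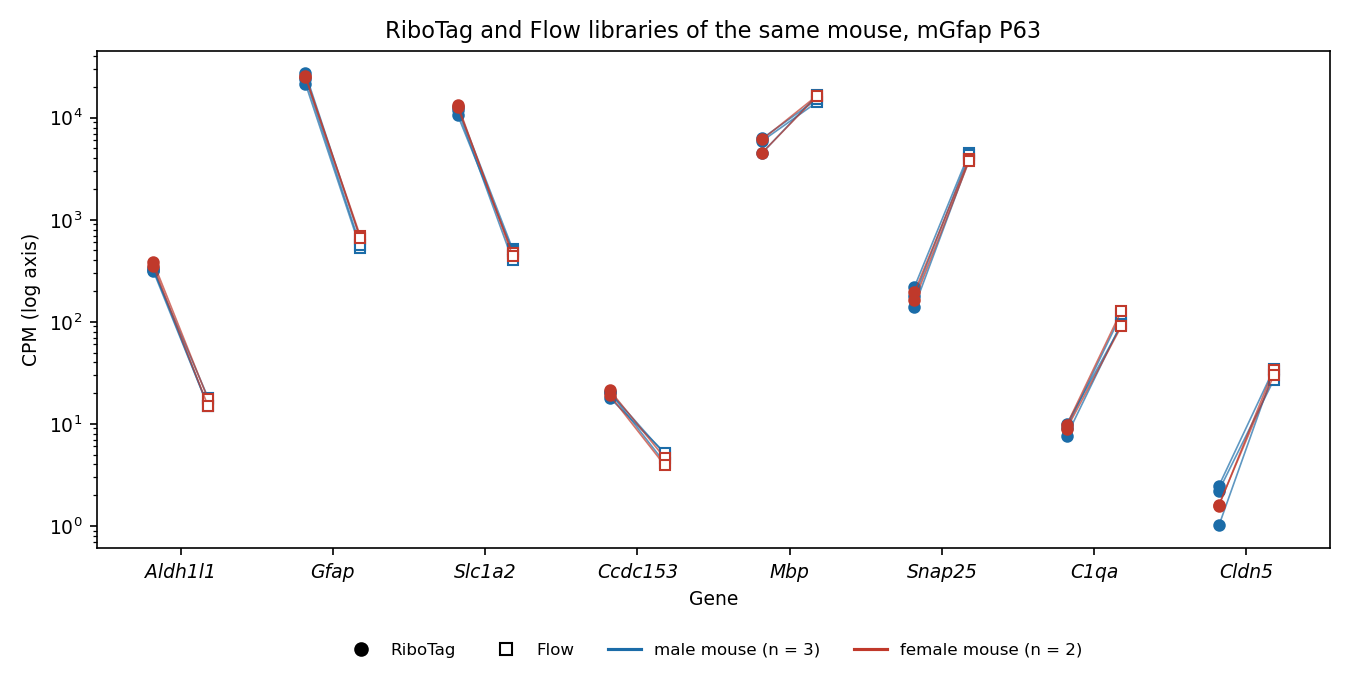
CPM (log axis) of 8 genes in the RiboTag (filled circles) and Flow (open squares) libraries, with a line joining the libraries of each mouse and males and females in different colours. Aldh1l1, Gfap, Slc1a2 and Ccdc153 fell from RiboTag to Flow in 5 of 5 mice, and Mbp, Snap25, C1qa and Cldn5 rose in 5 of 5.

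Transport and metabolic genes of astrocytes were enriched as groups. All 12 genes for the handling of glutamate, GABA, glycine and serine were enriched (median log2 3.03), from Glul at 1.82 to Slc1a2 at 4.72. Slc6a11, a GABA transporter, averaged 3202 ± 135 CPM in RiboTag and 159 ± 23.9 CPM in Flow libraries (SD, n = 5). Of 12 genes for potassium, water and endfeet, 11 were enriched (median log2 3.51). Among them were Kcnj10, the potassium channel Kir4.1 (log2 3.16), and Aqp4, the endfoot water channel (log2 5.23). Aqp4 varied more between mice, from 2786 to 4368 CPM in RiboTag libraries, without any overlap with the 72.1 to 112 CPM of Flow libraries. Clcn2, a chloride channel, was the exception with 28.6 ± 3.42 and 27.4 ± 3.38 CPM (SD, n = 5; log2 0.06, adjusted p = 0.60).

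Of 6 connexin genes, 2 were enriched, 2 depleted and 2 not called, where 17.8% of all genes tested were enriched and 23.1% depleted. Gja1 and Gjb6, which form astrocyte gap junctions, were enriched at log2 4.96 and 3.61, whereas Gjb1, which oligodendrocytes use, was depleted at −1.97. Of 4 intermediate filament genes, 3 were enriched, among them Vim (log2 2.66) and Nes (1.16), and Synm (−0.69) was under the 2-fold limit.

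Lipid genes followed 2 patterns. Of 18 cholesterol synthesis genes, 10 were enriched and 0 depleted, but by little, with a median log2 ratio of 1.11. Hmgcs1, which makes the precursor of mevalonate, was at 1147 ± 67.5 and 527 ± 41.1 CPM (SD, n = 5). Of 10 lipoprotein genes, 6 were enriched and 2 depleted. Apoe, the main brain apolipoprotein, averaged 18665 ± 1615 CPM in RiboTag and 841 ± 74.5 CPM in Flow libraries (SD, n = 5; log2 4.47), and Lcat, which esterifies cholesterol on lipoproteins, was enriched at log2 4.75. Apod, an apolipoprotein of oligodendrocytes and fibroblasts, and Abcg1, a sterol exporter, were depleted at log2 −2.56 and −1.66.

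All 14 transcription factors of the astrocyte list were enriched (median log2 2.73). Sox9, which sets astrocyte fate, stood at 184, 207, 205, 251 and 232 CPM in RiboTag and at 13.2, 11.3, 13.7, 12.8 and 10.2 CPM in Flow libraries. The groups did not overlap, and the log2 ratio was 4.14 ± 0.10 (SE, adjusted p = 5.3e-14). Id4, an inhibitor of helix-loop-helix factors, was enriched at 3.65, Nfib and Nfia, nuclear factors of gliogenesis, at 2.38 and 1.74, and Sox2 at 3.80. Zbtb20, a zinc finger factor of astrocyte development, had the largest value of the list (log2 5.57 ± 0.37 SE). It stood at 38.4, 45.2, 15.1, 57.5 and 41.9 CPM in RiboTag libraries, lowest in mouse 3, and at 0.467 to 1.18 CPM in Flow libraries. Rn45s was lowest in the same RiboTag library, and its part in this value was not tested. Factors that divide the neural tube from dorsal to ventral were measured too, since spinal astrocytes keep positional codes. Of 11 tested, 7 were enriched and 2 depleted, with a median of 3.03. Enrichment was found for dorsal Pax3 (log2 3.83) and Msx1 (4.14) and for ventral Nkx6-1 (3.98), and also for Pax6 (3.56) and for Reln, a secreted protein (3.03). The depleted members were Nkx6-2 (−1.07, or −0.92 and not called without RiboTag mouse 2), which oligodendrocytes use, and Slit1, an axon guidance cue (−3.65).

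Signalling lists were enriched in part. In the Notch list 7 of 10 genes were enriched and 0 depleted (median log2 2.06), led in abundance by Lfng, which sugar-modifies Notch (3.53), and Hey1, a Notch target (2.09), with the receptors Notch1 (2.71) and Notch2 (2.30). The ligand Dll1 was at −0.82 and under the 2-fold limit. In the Hedgehog list 6 of 10 were enriched and 0 depleted (median log2 2.36). The receptor Ptch1 stood at 227, 247, 219, 239 and 294 CPM in RiboTag against 15.5 to 24.7 CPM in Flow libraries (log2 3.71 ± 0.13 SE), and the transducer Smo at 157 ± 6.25 against 14.6 ± 1.56 CPM (SD, n = 5). Gli1, the target that reports pathway activity, was enriched at log2 2.24 but low, at 13.6 ± 0.554 against 2.88 ± 0.614 CPM.

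Of 12 secreted genes that act on synapses, 8 were enriched and 2 depleted (median log2 2.03). Sparcl1 (hevin, log2 3.67) and its homologue Sparc (3.95) were the most abundant. Bdnf, a neurotrophin (−2.57), and Thbs4, a thrombospondin (−2.86), were depleted from low levels of 8.44 and 1.29 CPM in Flow libraries. Of 10 genes of the neural progenitor list, 8 were enriched and 1 depleted. Hopx (log2 1.61) and Fabp7, the brain lipid binding protein (3.97), were enriched, and Cd24a, a surface protein that neurons also carry, was depleted (−1.46). None of 12 cell cycle genes was called, against 41.0% of all genes tested in either direction. Mki67 averaged 1.31 ± 0.675 and 1.96 ± 0.383 CPM (SD, n = 5).

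Genes known from reactive astrocytes were enriched in healthy tissue for 7 of 10 members, with 0 depleted and a median log2 of 1.75. C3, complement component 3, stood at 638, 824, 733, 657 and 771 CPM in RiboTag against 18.6 to 20.5 CPM in Flow libraries, far apart in every mouse (log2 5.21 ± 0.08 SE, adjusted p = 1.5e-15). Serpina3n, a protease inhibitor, was at 86.0, 101, 192.6, 134 and 110 CPM against 26.3, 31.5, 76.5, 34.8 and 33.3 CPM, and both libraries of mouse 3 were the highest of their group. Lcn2, lipocalin 2, was at or under 0.556 CPM in 4 RiboTag libraries and at 3.10 CPM in mouse 4, whose Flow library also stood apart with 20.6 CPM against 2.20 to 3.33 CPM in the others. It was not called (log2 −2.87, adjusted p = 0.014), but was depleted with the replicate block (−3.17, adjusted p = 2.4e-07) and without RiboTag mouse 4 (−4.42, adjusted p = 0.00021). Of 12 immediate early genes, which stimulated cells switch on within minutes, 2 were enriched, Egr2 (log2 2.11) and Atf3 (2.52), and 4 were depleted, among them Egr1 (−2.16) and Npas4 (−4.55), a factor of active neurons. Of all genes tested, 17.8% were enriched and 23.1% depleted.

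By fitted value and a mean of at least 5 CPM, the 10 genes with the largest enrichment among those without overlap were Agt, Zbtb20, Rarres1, Lars2, Fads2b, A2m, Rn45s, Gfap, Aplnr and Rn18s, from log2 5.58 down to 5.25. Agt, angiotensinogen, the precursor of angiotensin, which astrocytes make in the cord, led with 1848 to 2443 CPM in RiboTag and 40.6 to 48.7 CPM in Flow libraries. A2m, a protease trap (log2 5.37), Aplnr, the apelin receptor (5.30), and Fads2b, of the fatty acid desaturase family (5.52), were at RiboTag means of 594, 259 and 111 CPM. Rarres1 was at 11.5 to 15.9 CPM and at most at 0.668 CPM in Flow libraries. Lars2, mitochondrial leucyl-tRNA synthetase, was at 4156, 3757, 1427, 4973 and 3794 CPM in RiboTag libraries, where Rn45s was at 154500, 125290, 46788, 120210 and 110400 CPM, so that mouse 3 was the lowest in both. The part of ribosomal RNA in the value of Lars2 was not tested.

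Neuronal transcripts were depleted. Of 12 neuron genes, 11 were depleted (23.1% of all genes tested were) and 0 enriched, with a median log2 of −4.07, and of 14 genes for the transmitters of spinal neurons 14 were depleted, with a median of −4.29. Snap25, a synaptic vesicle fusion protein, stood at 219, 141, 177, 195 and 162 CPM in RiboTag and at 4537, 3902, 4275, 3968 and 3788 CPM in Flow libraries. It was 22.9-fold lower without overlap (log2 −4.52 ± 0.12 SE, adjusted p = 5.7e-14). Penk, the enkephalin precursor, Slc32a1, the vesicular GABA and glycine transporter, and Sst, somatostatin, were depleted at −4.77, −4.79 and −5.02. Map2, a dendritic microtubule protein, was the exception, with 355 ± 23.4 and 369 ± 23.5 CPM (SD, n = 5; log2 −0.05, adjusted p = 0.42).

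Genes of the neurons that contact the cerebrospinal fluid at the central canal were depleted for 5 of 6 members, with Pkd2l1, their channel marker, at −2.53. Among genes of sensory ganglia, Calca and Prph were depleted (−5.41 and −4.21) and Avil, an actin-binding protein, enriched (2.68) from a RiboTag mean of 1.66 CPM.

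The 10 most depleted genes by the same rule were Bc1, Rspo2, Uts2, Nmu, Htr3a, Npff, Atg9b, Calca, Calcb and F2rl2, from log2 −6.12 to −5.33. Uts2 (urotensin 2), Nmu (neuromedin U), Npff (neuropeptide FF), Calca and Calcb (calcitonin gene-related peptides) encode neuropeptides, and Htr3a a serotonin-gated channel. Their Flow means lay between 5.17 CPM (Npff) and 36.9 CPM (Calca), apart from Bc1, and their RiboTag means were below 1 CPM. Bc1, a short noncoding RNA of neuronal dendrites, stood at 353, 235, 277, 360 and 229 CPM in RiboTag and at 23238, 18068, 19801, 24465 and 15475 CPM in Flow libraries, 69.5-fold apart.

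Microglial genes were depleted for 13 of 14 members, with a median log2 of −3.58. C1qa, a complement subunit made by microglia, stood at 7.61, 9.16, 9.88, 9.72 and 8.94 CPM against 97.4, 119, 93.3, 129 and 90.9 CPM, with no overlap and a log2 ratio of −3.54 ± 0.11 (SE, adjusted p = 6.3e-13). Sall1, a transcription factor that in adult brain marks microglia, went the other way, at 65.4 ± 7.08 CPM in RiboTag and 30.5 ± 4.03 CPM in Flow libraries (SD, n = 5; log2 1.10). Border macrophage and monocyte genes were depleted for 8 of 9 members, neutrophil genes for 8 of 8 and erythrocyte genes for 2 of 5, with 0 enriched in each list. Defining genes of these lists were low in RiboTag libraries, but above the floor of 0.0429 CPM. S100a9, a neutrophil protein, was at 0.706 to 3.80 CPM and Hba-a2, alpha globin, at 0.0720 to 2.81 CPM. Of 4 lymphocyte genes tested none was called. Among all genes tested 23.1% were depleted, and 41.0% were called in either direction.

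Vessel cells were depleted as well. All 10 endothelial genes were depleted (median log2 −4.22), among them Ly6c1 (−5.00) and Cldn5, the tight junction protein of the blood-brain barrier, which stood at 2.47, 1.01, 2.22, 1.57 and 1.61 CPM against 34.3, 32.6, 26.9, 34.0 and 29.9 CPM. Of 10 mural genes, 6 were depleted, with Vtn, a pericyte gene, at −3.39, and 2 enriched, Notch3 (2.69) and Tagln (1.40). Of 10 fibroblast and meningeal genes, 7 were depleted and 2 enriched. Dcn, a matrix proteoglycan, was at 3.40 to 7.61 CPM against 44.9 to 121 CPM (log2 −3.93), and Col1a1, the α1 chain of collagen I, was depleted at −2.03. Col1a2, the partner chain, was enriched at 1.10, from 122, 182, 141, 143 and 179 CPM in RiboTag and 35.6, 116, 73.9, 49.1 and 82.6 CPM in Flow libraries. The groups of Col1a2 stood next to each other without overlap, 116 CPM in Flow mouse 2 being close to 122 CPM in RiboTag mouse 1, and the call was lost without Flow mouse 1 (log2 0.93) or Flow mouse 4 (0.99). Aebp1, a matrix-binding protein, was enriched at 1.84.

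**Figure D2:**
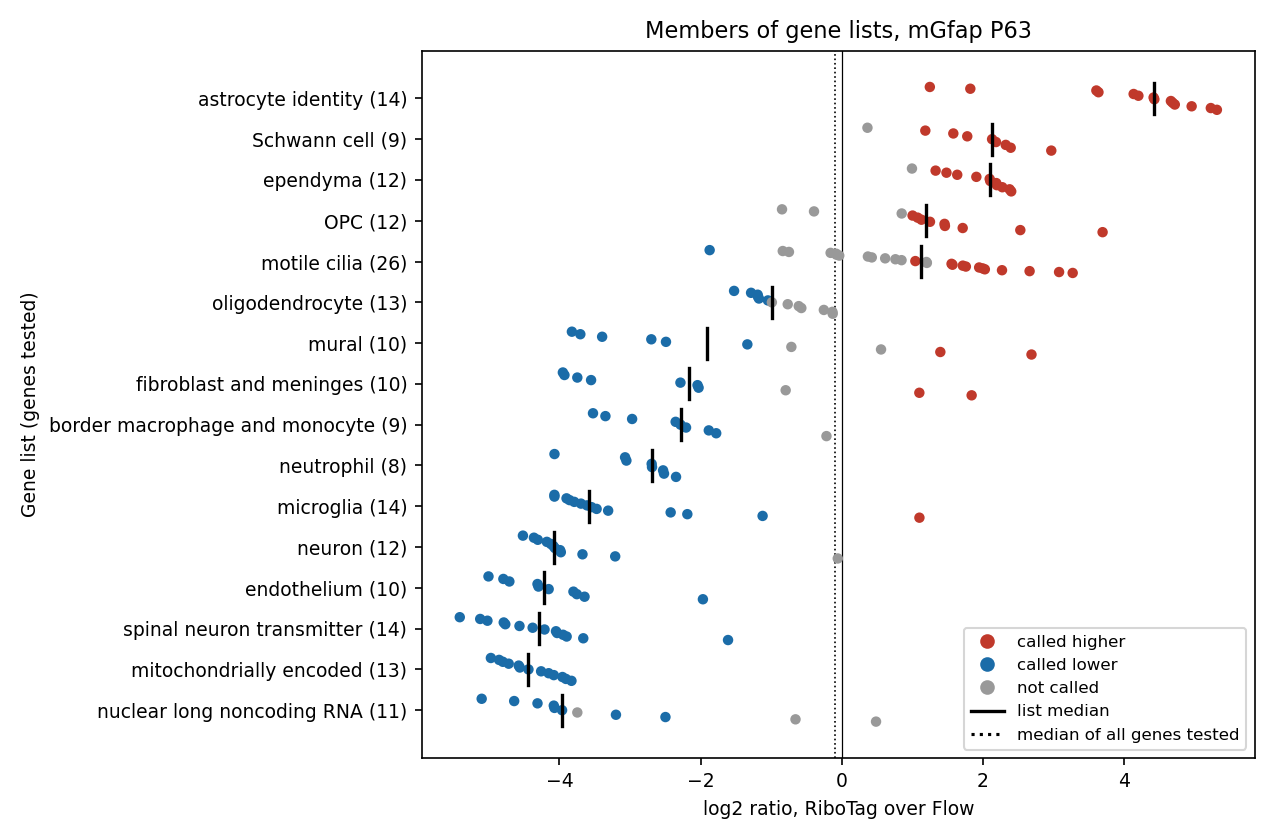
Log2 ratios of RiboTag over Flow libraries for the tested members of 16 gene lists, 1 point a gene, in red where enriched, blue where depleted and grey where not called, with the median of each list as a bar and the median of all genes tested, −0.09, as a dotted line. Astrocyte identity genes lie at the right with a median of 4.43, and neurons, endothelium and mitochondrially encoded RNAs at the left, with medians of −4.07, −4.22 and −4.44.

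Genes listed as markers of glia other than astrocytes were also enriched in part. Which cells their transcripts came from was not tested. Ependymal genes were enriched for 11 of 12 members (median log2 2.10, between 1.74 and 2.31 per mouse). Ccdc153, a coiled-coil protein of motile cilia, stood at 20.3, 17.9, 20.3, 21.2 and 19.004 CPM in RiboTag and at 5.04, 5.21, 4.14, 4.63 and 3.91 CPM in Flow libraries. The lowest RiboTag library was over the highest Flow library by more than 3 times, and the log2 ratio was 2.11 ± 0.11 (SE, adjusted p = 1.0e-10). Rsph1, of the radial spokes of cilia, was enriched at 2.38, and Rarres2, the adipokine chemerin, at 1.91. Foxj1, the master factor of motile cilia, was just under the 2-fold limit at 78.3 ± 4.46 and 39.2 ± 3.79 CPM (SD, n = 5; log2 1.00, adjusted p = 7.8e-09), and passed it with the replicate block (adjusted p = 1.7e-07) and without any 1 of RiboTag mice 1, 2 and 3 and Flow mice 2 and 3 (1.00 to 1.05). Of 26 genes of the motile cilium, 12 were enriched and 1, the dynein Dnah3 (−1.87), depleted, with a median of 1.12. Dnaic1, a dynein chain (3.08), Tekt4, a tektin (3.27), and Rsph9 (1.76) were the most abundant. Rfx2 (2.82) and Rfx3 (2.15), factors that bind X-box motifs in front of cilia genes, were enriched with means of 17.2 and 33.2 CPM in RiboTag libraries. Of 6 genes of the multiciliation list tested, 2 were enriched, 0 depleted and 4 not called. Of all genes tested, 17.8% were enriched and 23.1% depleted, and the multiciliation count is too small to stand apart from these shares.

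The promoters of 3 ependymal genes are shown because they hold the half-site of the X-box, GTTGCC, to which these Rfx factors bind, and because the 3 genes had the largest differences between the mGfap and Aldh1l1 lines among list genes with the half-site. Each is the 250 bases in front of the RefSeq start in GRCm38.p6, read 5′ to 3′ along the gene, with the half-site on either strand in capitals.
Pifo, chr3:106001498-106001747, minus strand: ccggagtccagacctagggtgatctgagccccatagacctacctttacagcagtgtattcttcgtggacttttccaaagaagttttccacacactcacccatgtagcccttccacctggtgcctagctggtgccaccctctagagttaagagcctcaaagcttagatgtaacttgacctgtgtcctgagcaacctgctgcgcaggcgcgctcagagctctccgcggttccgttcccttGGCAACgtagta
Ccdc153, chr9:44240427-44240676, plus strand: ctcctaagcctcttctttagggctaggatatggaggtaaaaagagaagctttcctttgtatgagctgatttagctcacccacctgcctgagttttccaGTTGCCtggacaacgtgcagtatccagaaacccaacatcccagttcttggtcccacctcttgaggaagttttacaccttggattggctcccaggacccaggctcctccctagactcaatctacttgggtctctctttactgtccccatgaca
Fam183b, chr11:58801961-58802210, minus strand: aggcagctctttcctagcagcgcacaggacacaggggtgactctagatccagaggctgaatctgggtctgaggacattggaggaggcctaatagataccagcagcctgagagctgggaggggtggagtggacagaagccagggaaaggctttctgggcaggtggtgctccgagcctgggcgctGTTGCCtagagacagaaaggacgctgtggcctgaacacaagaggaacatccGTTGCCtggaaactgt
The half-site began 12 bases before the start in Pifo, 152 in Ccdc153, and 67 and 16 in Fam183b. It was found in 10 of the 31 ependymal and ciliary list genes with a promoter sequence (32.3%), of 38 in the lists, and in 11.8% of 27025 genes of the table. The full X-box, in which 2 unspecified bases and then GGNAAC follow the half-site, was in 1 of the 31 (3.23%) and in 0.292% of all. The half-site was chosen after other strings, among them longer forms of the X-box and motifs of other factors, had been counted in the same promoters and its share was known, so the shares are given as a description without a test.

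OPC genes were enriched for 9 of 12 members and depleted for 0, with a median log2 of 1.19. Gpr17, a receptor of progenitors about to differentiate, stood at 135, 126, 141, 97.4 and 188 CPM in RiboTag and at 44.9, 53.7, 45.95, 41.0 and 64.6 CPM in Flow libraries. Mouse 5 was the highest and mouse 4 the lowest in both, and the groups did not overlap (log2 1.46 ± 0.15 SE, adjusted p = 6.5e-07). Olig1, a lineage factor, was enriched at 1.46, and Ptprz1, a phosphatase that astrocytes share, at 3.70. Bcas1, of oligodendrocytes that begin to myelinate, was at −0.84 and not called. Mature oligodendrocyte genes had 6 of 13 members depleted and 0 enriched, with a median of −0.99, far from the −4.07 of the neuron list. Mbp, a main protein of myelin, stood at 5925, 4519, 6267, 4534 and 6125 CPM in RiboTag and at 14204, 16643, 15169, 16273 and 16441 CPM in Flow libraries. Mice 2 and 4 were lower than the others in RiboTag libraries, the groups did not overlap, and the log2 ratio was −1.52 ± 0.10 (SE, adjusted p = 2.5e-09). Cnp, a myelin enzyme, was at −0.13 and not called.

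Schwann cell genes were enriched for 8 of 9 members, with a median log2 of 2.13. Pmp22 (1.19) and Drp2 (2.33), of peripheral myelin, were among them, and Foxd3 (0.37) was not called.

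Some RNA classes moved apart too. The 13 RNAs encoded in the mitochondrion were all depleted, with a median log2 of −4.44, and COX1, cytochrome oxidase subunit 1, fell from 16579 ± 2405 CPM in Flow to 866 ± 46.3 CPM in RiboTag libraries (SD, n = 5). Of 11 nuclear long noncoding RNAs, 8 were depleted (median log2 −3.96), among them Meg3 (−3.96), Neat1 (−3.20) and Snhg11 (−4.64). Malat1 (−0.65) and Tug1 (0.49) were not called. Of 8 spliced hosts of small nucleolar RNAs, 5 were depleted (median −1.04), with Gas5 at −1.03, not called without RiboTag mouse 5 (−0.94) or Flow mouse 1 (−0.96). Of 80 genes for cytosolic ribosomal proteins, 11 were depleted and 1, Rps27l (1.01), enriched, with a median of −0.60. Of all genes tested, 23.1% were depleted and 17.8% enriched. The value of Rps27l lay at the 2-fold limit, and its call was lost with the replicate block (0.99) and without any 1 of RiboTag mice 1, 2 and 4 and Flow mice 3 and 5 (0.94 to 1.00). Long noncoding RNAs of the RefSeq annotation as a class were enriched in 15.2% and depleted in 25.3% of 864 tested, beside 18.4% and 23.1% of 15379 protein-coding genes.

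The enrichment of the mGfap line was then set against that of the Aldh1l1 line in uninjured cord, by an interaction of line and fraction over 18 libraries. Of 18269 genes tested, the ratio of RiboTag to Flow was at least 2-fold higher in the mGfap line for 488 (2.67%) and at least 2-fold lower for 334 (1.83%). The lines differ in Cre driver, tamoxifen and age, which cannot be told apart from the line, and 3 of the 5 mGfap mice were male where all Aldh1l1 mice were female. Whether the lines also differ in library batch is not known. With the 2 mGfap females alone, which leaves 12 libraries, 209 genes were higher and 68 lower, 206 and 64 of them among the genes called with all mice. Without scaling the counts were 543 and 233, or 70.0% higher in place of 59.4%, with the median over all genes moved by 0.12. In RiboTag libraries alone, 608 genes were higher in the mGfap line (3.33%) and 624 lower (3.42%). In Flow libraries alone, 222 genes were higher (1.22%) and 53 lower (0.29%). The count of lower genes was 35 without Flow mouse 3 of the mGfap line and 32 without Flow mouse 1 of the Aldh1l1 line. Without scaling 145 Flow genes were higher and 79 lower, or 64.7% higher in place of 80.7%.

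Some astrocyte genes had a lower ratio in the mGfap line. Of 14 identity genes, 1 was higher in ratio and 4 were lower, beside 4.5% of all genes tested in either direction. The list median was 4.42 in the mGfap line, from 4.17 to 4.56 per mouse, and 4.82 in the Aldh1l1 line, from 4.61 to 5.02. Of 12 genes for the handling of glutamate, GABA, glycine and serine, 4 were lower and 0 higher, with medians of 2.87 to 3.23 per mouse against 3.71 to 4.05. Of 12 genes for potassium, water and endfeet, 3 were lower and 0 higher, with medians of 3.36 to 3.70 against 4.20 to 4.42. The mice of the lines did not overlap in the median of any of these 3 lists. In level, none of the 14 identity genes differed by 2-fold in RiboTag libraries (6.74% of genes tested did, in either direction). Gfap was higher in ratio by log2 1.14 ± 0.14 (SE, adjusted p = 8.7e-06), at 21647 to 27400 CPM in mGfap and 15737 to 19709 CPM in Aldh1l1 RiboTag libraries. Neither the RiboTag nor the Flow level of Gfap was called different between the lines. Slc1a2 and Gja1 were lower in ratio, with log2 differences of −1.27 and −1.05, and both were called higher in Flow (1.22% of genes tested were) and not in RiboTag libraries. The call of Gja1 was lost without RiboTag mouse 3 of the Aldh1l1 line (−0.997) and with mGfap females alone (−0.97). Flow libraries held them at 405 to 525 and 69.8 to 86.3 CPM in the mGfap line and at 215 to 259 and 31.9 to 40.2 CPM in the Aldh1l1 line. Slc6a11 and Slc7a10, transporters for GABA and neutral amino acids, were lower in ratio, with differences of −1.39 and −1.37. C3 was higher by 1.32. Of the 429 panel genes tested, 8 were higher and 34 lower.

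Ependymal and ciliary genes had higher ratios in the mGfap line. In the ependymal list, 10 of 12 were higher in the mGfap line and 0 lower, with medians of 2.10 and −0.31, and in the motile cilium list 14 of 26 were higher and 0 lower, with medians of 1.12 and −1.55. Ccdc153 was at 0.653, 0.496, 0.391 and 0.689 CPM in Aldh1l1 RiboTag and at 10.1, 8.15, 7.26 and 8.53 CPM in Aldh1l1 Flow libraries, the reverse of the mGfap line, and the ratios differed by log2 6.04 ± 0.22 (SE, adjusted p = 3.6e-13). Tmem212 (7.67), Ak7 (6.40), Fam216b (5.41) and Fam183b (5.19) were alike. Pifo, which has the half-site 12 bases before its start, was at 1.57 to 1.94 CPM in mGfap and at most at 0.0422 CPM in Aldh1l1 RiboTag libraries, which is 4 counts or fewer. Spag17, of the cilium's central pair, had no count in any Aldh1l1 RiboTag library, and its mGfap mean was at least 17.4-fold higher than 3 counts per library. Foxj1 did not follow, at 78.0, 67.9, 83.4 and 72.0 CPM in Aldh1l1 RiboTag libraries beside 75.3 to 84.7 CPM in mGfap ones, and its ratio differed by 0.43 (not called). Rfx2 and Rfx3 also had ratios that were not called different. Of 8 genes of the multiciliation list tested between the lines, 2 were higher in ratio and 0 lower, where 2.67% of all genes tested were higher. Among the ependymal and ciliary genes higher in the mGfap line, 7 of 20 with a promoter sequence (35%) held the half-site. In the whole of the 2 lists the share was close to this, 10 of 31 (32.3%), and it was 12.5% in all genes tested between the lines that had a sequence. A link between the half-site and the line was not tested.

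**Figure D3:**
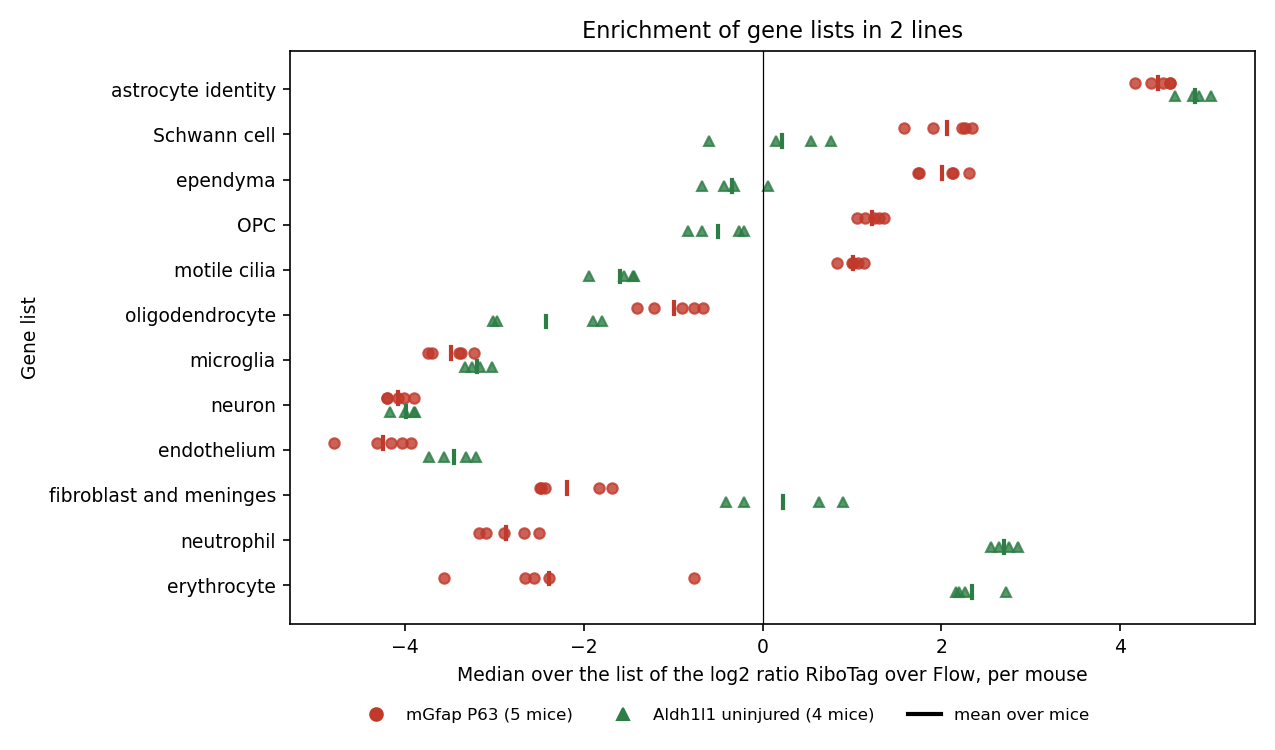
Median over each of 12 gene lists of the log2 ratio of RiboTag over Flow, 1 point a mouse, for 5 mGfap mice at P63 (circles) and 4 uninjured Aldh1l1 mice (triangles), with the mean over mice as a bar. Mice of the lines lie apart for ependyma, motile cilia, OPC, oligodendrocyte, Schwann cell, neutrophil, erythrocyte and fibroblast lists, and by less for astrocyte identity and endothelium. They overlap for the neuron and microglia lists.

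The oligodendrocyte lineage differed in the same direction. Of 12 OPC genes, 8 were higher and 0 lower (medians 1.19 and −0.55), and of 13 oligodendrocyte genes 8 were higher and 0 lower (medians −0.99 and −2.28). Gpr17 was at 2.38, 4.57, 4.03 and 3.81 CPM in Aldh1l1 RiboTag libraries, below every mGfap library, while its Flow levels of 35.1 to 55.8 CPM overlapped those of the mGfap line. The ratios differed by log2 5.06 ± 0.29 (SE, adjusted p = 1.1e-09). Opalin, a myelin membrane protein, was at 29.3 to 60.0 CPM in mGfap and 1.66 to 2.84 CPM in Aldh1l1 RiboTag libraries, a difference in ratio of 5.10. Neu4 (4.47) was alike. Susd5 (5.14) and Inava (4.15) completed the 10 genes with the largest values. For Mbp the ratios were −1.53 and −2.28 and the difference was not called (0.75, adjusted p = 0.16), with Aldh1l1 RiboTag libraries spread from 1660 to 4931 CPM. Of 9 Schwann cell genes, 3 were higher and 0 lower, with medians of 2.13 and 0.31.

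In the other direction stood blood and fibroblast genes. All 10 neutrophil genes tested here were lower in the mGfap line (medians −2.87 and 2.80), as were 4 of 5 erythrocyte genes (−2.29 and 2.32) and 4 of 10 fibroblast and meningeal genes (−2.17 and 0.57). Only 8 of the 10 neutrophil genes passed the filter on low counts in the P63 libraries alone. The others were tested only once the Aldh1l1 libraries were added, so the filter may have set their direction in part. S100a9 was at 153, 59.7, 29.2 and 53.9 CPM in Aldh1l1 RiboTag libraries, highest in mouse 1, and at 5.01 to 23.6 CPM in the Flow libraries of that line, which overlapped the 6.48 to 16.8 CPM of mGfap Flow libraries. Its ratios differed by log2 −5.23 ± 0.87 (SE, adjusted p = 0.00059). The 10 genes with the largest values were Pck1, Fgfbp1, Ltf, Fabp4, Chil3, Hbb-bs, Slc22a6, S100a8, Slc6a20a and Mpo. Ltf, Chil3, S100a8 and Mpo belong to neutrophils and their precursors, Hbb-bs is beta globin, and Slc22a6 a transporter of the meninges. Pck1, a gluconeogenic enzyme, and Fabp4, a fatty acid carrier of fat cells and vessels, were at 1.67 to 10.9 and 13.8 to 73.1 CPM in Aldh1l1 RiboTag libraries. Pck1 had 3 counts or fewer in each mGfap RiboTag library, and no fold is given. Dcn was lower with a log2 difference of −4.50, at 189, 213, 66.7 and 88.9 CPM in Aldh1l1 RiboTag libraries against 3.43 to 7.66 CPM. With mGfap females alone, S100a9 (−5.13, adjusted p = 0.053), S100a8 (−5.64, 0.043), Mpo (−4.80, 0.029), Fgfbp1 (−6.80, 0.040), Fabp4 (−6.65, 0.0103), Slc22a6 (−6.62, 0.12), Slc6a20a (−7.13, 0.022) and Dcn (−4.28, 0.012) were no longer called. None of 14 microglial and none of 12 neuronal genes differed in ratio (4.5% of all genes tested were called). Of the 13 RNAs encoded in the mitochondrion, 10 were lower in ratio (medians −4.44 and −3.15), in libraries whose mitochondrial share was 5.72% to 6.80% in Aldh1l1 and 8.55% to 9.90% in mGfap Flow. Bc1 was close in ratio (−6.12 and −5.98) but differed in level, with 1038.8 to 2005 CPM in Aldh1l1 Flow libraries and 15634 to 24741 CPM in mGfap ones (log2 3.64).

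**Figure D4:**
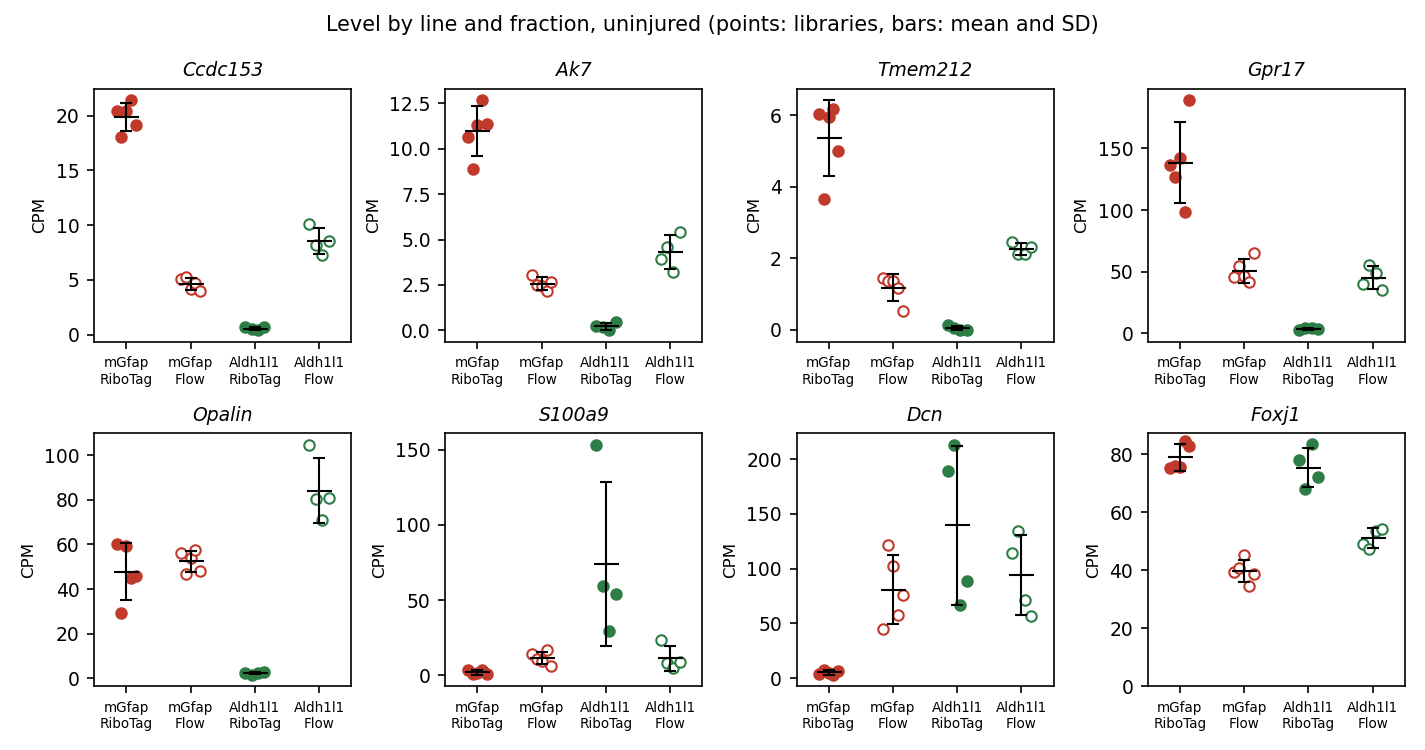
CPM of 8 genes in the RiboTag (filled) and Flow (open) libraries of 5 mGfap P63 and 4 uninjured Aldh1l1 mice, with the mean and SD of each group. Ccdc153, Ak7, Tmem212, Gpr17 and Opalin are near 0 in Aldh1l1 RiboTag libraries alone, S100a9 and Dcn are highest there, and Foxj1 is alike in the RiboTag libraries of the lines.

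Within the mGfap line, the P63 libraries were compared with those of injured females at 14 d in the same way. The ratio was at least 2-fold higher at P63 for 1827 of 18427 genes (9.91%) and lower for 1978 (10.7%). With P63 females alone the counts were 833 and 1032, and without scaling 1113 and 3095, or 26.4% higher in place of 48.0%, with the median over all genes moved by −0.35. Of the 5 P63 mice 3 were male, all injured mice were female, and the groups differ in age, which cannot be told apart from the injury. A difference in library batch is not known here either. Of 14 astrocyte identity genes, 4 had a higher ratio at P63 and 0 a lower one (medians 4.48 and 3.53), and of the 429 panel genes 223 were higher and 1 lower (3.32 and 2.15). Gfap averaged 25569 ± 2704 CPM in RiboTag libraries at P63 and 25187 ± 3455 CPM after SCI (SD, n = 5), while its Flow level was 618 and 1881 ± 360 CPM, so that the ratios were 5.37 and 3.74. Slc1a2 was at 12711 ± 1230 CPM in RiboTag libraries at P63 and at 3343 ± 1306 CPM after SCI, its Flow level moved the same way, and the ratio was not called different (4.77 and 4.17). Apoe was enriched at P63 and not at 14 d, with log2 ratios of 4.52 and −1.41 (difference 5.93 ± 0.35 SE, adjusted p = 4.2e-10). Its RiboTag means were 19279 and 24062 CPM and its Flow means 839 and 63903 CPM.

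Oligodendrocyte genes went the other way, lower in ratio at P63 for 13 of 13 members (medians −0.94 and 1.56), and so did 8 of 12 OPC genes (1.24 and 2.61), with Cspg4 (1.05) the only OPC gene higher. That call was lost without any 1 of RiboTag mice 1, 2 and 4 and Flow mouse 1 at P63, and of RiboTag mouse 2 and Flow mouse 4 after SCI (0.90 to 1.00), and with P63 females alone (0.87). Mbp averaged 5645 CPM in RiboTag libraries at P63 and 19984 ± 3613 CPM after SCI (SD, n = 5), and its log2 ratios were −1.48 and 0.93. Of the ependymal and motile cilium lists, 2 of 12 and 3 of 26 genes were lower in ratio at P63 and 0 higher, shares near the 10.7% of all genes tested that were lower. Foxj1 was one of them, with 81.0 and 201 ± 20.3 CPM in RiboTag libraries and log2 ratios of 1.05 and 2.92, whereas Ccdc153, at 20.4 and 18.4 ± 7.88 CPM, was not called different. Of 9 Schwann cell genes 2 were lower at P63 and 0 higher (medians 2.18 and 2.25). Hedgehog genes had 7 of 10 members with a higher ratio at P63 and 1, Hhip (−1.09, or −0.99 and not called without Flow mouse 3 after SCI), with a lower one (medians 2.41 and −0.14), and Gli1 was at 14.0 CPM at P63 and at 1.77 ± 0.696 CPM after SCI in RiboTag libraries.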

How the data were processed

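Libraries of poly-A selected RNA were sequenced as read pairs. Per the labels, the submitters' processing notes and the study's methods, the authors used Trimmomatic for trimming, HISAT2 for alignment to mm10 and featureCounts for counting, with default parameters for the last 2, and versions are not given in the sources used here. The deposited files hold raw counts for 27179 Entrez identifiers each, of which 25275 were named from RefSeq, 18 from GENCODE, 17 from tables of the study and 1869 not at all. A strand setting is not given, so that overlapping and antisense genes may share reads. Floors of 3 counts cover counting error only, and SEs include the spread between mice.

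Counts were tested with edgeR 4.0.16 in R 4.3.3 (TMM scaling, filterByExpr, robust quasi-likelihood F test, Benjamini-Hochberg adjustment over all genes tested), checked on simulated data. A call needed an FDR under 0.01 and at least 2-fold. CPM and RPKM were computed from the counts, RPKM with the exon union of RefSeq GRCm38.p6, the build of mm10. SE is the log2 value divided by the square root of F. The 3 fits covered 10 libraries (P63), 18 libraries (with the Aldh1l1 line) and 20 libraries (with SCI). RiboTag and Flow libraries of a mouse share its number, by which they were paired. Deviations from the group means correlated at 0.377, 0.362, 0.241, 0.485 and 0.684 over 11447 genes in libraries of the same number. Libraries of different numbers gave −0.504 to 0.240. The highest of these, RiboTag mouse 2 with Flow mouse 3, was close to the value of mouse 3, so for mouse 3 the correlations do not settle the pairing. The fits reported have no block for the mouse, and the block was an alternative. Alternatives were other scalings, filters, DESeq2 1.42.0, newer quasi-likelihood settings, sex as a covariate or females only, other thresholds, leaving out each library, and, chosen after seeing the data, leaving out the ribosomal RNA genes.

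The members and gene lists were chosen with earlier results of these data known. Named genes are the most abundant members of a list by mean CPM, members called against the direction of the list median, and the 10 largest fitted values in each direction among called genes with a symbol, at least 5 CPM in the higher group and groups without overlap. Outside this rule, Aldh1l1, Sox9, Egr2, Atf3, Cspg4, Hhip, Clcn2, Map2, Dll1, Gli1, Lcn2, Msx1, Pax3, Npas4, Tug1, Foxd3, Slc7a10, Pifo and Spag17 were chosen after their values were seen. Promoters came from RefSeq. Some genes that the rule names are not reported here.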

Additional observations from a re-analysis of the deposited data

Results flagged for a closer look

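Of 88 groups of 5 values examined, 4 held a sample far from the others by Dixon's criterion, where chance gives about 1 in 20. Lcn2 in mouse 4 stood at 3.10 CPM in the RiboTag library (median of the others 0.228) and at 20.6 CPM in the Flow library (2.92). Serpina3n in the Flow library of mouse 3 stood at 76.5 CPM (32.4). The RiboTag library of mouse 4 had 97184599 counts, the largest total of its group. No cause was tested.

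By the interaction of line and fraction, 488 genes had a higher and 334 a lower enrichment in the mGfap line at P63 than in the Aldh1l1 line. Among the genes named, the log2 difference was positive for Tmem212 (7.67), Pifo (6.74), Ak7 (6.40), Ccdc153 (6.04), Fam216b (5.41), Fam183b (5.19), Susd5 (5.14), Opalin (5.10), Gpr17 (5.06), Neu4 (4.47), Inava (4.15), C3 (1.32) and Gfap (1.14). It was negative for Fgfbp1 (−6.95), Ltf (−6.68), Fabp4 (−6.27), Chil3 (−6.19), Hbb-bs (−6.00), Slc22a6 (−5.99), S100a8 (−5.97), Slc6a20a (−5.86), Mpo (−5.58), S100a9 (−5.23), Dcn (−4.50), Slc6a11 (−1.39), Slc7a10 (−1.37), Slc1a2 (−1.27) and Gja1 (−1.05). For Spag17 the lower bound of the fold between RiboTag libraries was 17.4, and Pck1 averaged 6.89 CPM in Aldh1l1 RiboTag libraries, with 3 counts or fewer in each mGfap one.

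Against the injured mGfap mice at 14 d, 1827 genes had a higher and 1978 a lower enrichment at P63. Among the genes named, the difference was positive for Apoe (5.93), Gli1 (5.39), Gfap (1.63) and Cspg4 (1.05) and negative for Mbp (−2.41), Foxj1 (−1.87) and Hhip (−1.09).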

How the results depend on the processing

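No gene called in one direction was called in the other under any alternative run. For the P63 enrichment, 2031 genes were higher without scaling, and 5583 were higher and 6035 lower without a fold threshold. Leaving out 1 library gave 2970 to 3116 higher and 3801 to 4189 lower. For the difference between lines, DESeq2 gave 510 lower genes, females only 209 higher and 68 lower, an FDR under 0.05 566 lower, and no fold threshold 792 higher and 992 lower, with 437 to 524 and 226 to 384 when 1 library was left out. For RiboTag levels, females only gave 219 lower genes, an FDR under 0.05 945 lower, and no fold threshold 1940 and 1780, with 542 to 618 and 505 to 644. For Flow levels, no scaling gave 145 higher genes, the newer quasi-likelihood settings 104 lower, females only 86 and 24, an FDR under 0.05 89 lower, and no fold threshold 2252 and 1448, with 165 to 296 and 32 to 62. For the difference from 14 d SCI, no scaling gave 1113 and 3095, females only 833 and 1032, and no fold threshold 2774 higher genes, with 1455 to 2043 and 1772 to 2334. The cause of these changes was not tested, other than the looser thresholds and the fewer samples of some. With the replicate block the counts were 2979 and 3944 at P63, 500 and 369 between lines, and 1929 and 2324 against SCI. Of 147 genes followed by name, 2 lost and 3 gained a call with the block at P63. Lcn2, Foxj1 and Rps27l were among them, each within its direction. Between lines 2 lost and 4 gained a call, and against SCI 10 gained one. Depth limits genes near the floor of 3 counts, and 5 mice a group limit small differences. Female mice number 2 at P63, so comparisons by sex rest on few libraries.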
